A study of Mus musculus with 4 samples.

Results

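The transcripts described here encode the enzymes that build cholesterol and fatty acids and the proteins of the sterol regulatory element binding protein (SREBP) system that controls them. The set was defined by 33 gene symbols, and a gene was counted as measured where the platform annotation assigned a probe set to it and to no other gene. By that rule 32 genes were measured, with 35 probe sets among the 21044 probe sets (19452 genes) that named a single gene. *Acat2*, which encodes a cytosolic acetoacetyl-CoA thiolase, had no such probe set and was not analysed here. *Acaca*, *Idi1* and *Fdft1* had a pair of probe sets each, and the brighter one stands for the gene unless both are named.

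RNA was recovered from cytoplasmic lysates of proliferating C2C12 (LKO1) cells with the monoclonal antibody 3B1 against CUGBP1 (CUGBP1 IP, 2 arrays) or, for comparison, with normal IgG (control IgG, 2 arrays). These mouse myoblasts belong to a stable line, LKO1, that carries an empty lentiviral vector and is selected with puromycin, and they were harvested before reaching confluency. Both groups therefore share cells, vector and growth conditions, and the antibody is the difference the labels give. The input RNA was not analysed here, so the level of a transcript in the lysate and the fraction of it that came down cannot be told apart from these values. CUGBP1 is a protein that binds GU-rich stretches of mRNA and can bring deadenylases to them, and the comparison asks which transcripts came down with it. Separate cultures are not stated for the replicates in any source, so p-values measure only the spread between these arrays, which may be technical.

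Cholesterol is made from acetyl-CoA through mevalonate, farnesyl diphosphate, squalene and lanosterol. Fatty acids are made from the same acetyl-CoA by carboxylation to malonyl-CoA and repeated condensation, and are then elongated and desaturated. The SREBP transcription factors are held in the membrane of the endoplasmic reticulum by SCAP and the INSIG proteins when sterols are plentiful. They move to the Golgi, are cleaved and enter the nucleus when sterols are scarce, and there they raise transcription of most of the genes in this set, often together with the CCAAT-binding factor NF-Y. Proliferating cells, myoblasts included, use the pathway to make membrane.

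RefSeq promoters (250 bases before to 50 after a transcription start, build GRCm38.p6) were found for 27 of the 33 genes, and stretches of 3 are shown because such DNA is where the SREBP system acts on its targets. The arrays measured RNA and carry no information on promoters. The letters CCAAT, on either strand, were found in 22 of the 27 genes (81.5%) and in 41.1% of all 27025 genes with a promoter. The E-box CACGTG was found in 5 of the 27 (18.5%, against 8.09% of all genes). The letters TCACNCCA, close to the core of a sterol regulatory element and chosen after the promoters had been looked at, were found in 3 of the 27 (11.1%, against 4.97%). Those 3 were *Msmo1*, *Hmgcs1* and *Srebf2*. No printed match overlapped another. In the stretches that follow, each 98 bases long and read 5′ to 3′ on the strand of the gene, capitals mark TCACNCCA and CCAAT or its complement ATTGG. They lie at chr8:64733703-64733800 (minus strand) for *Msmo1*, at chr13:119690169-119690266 (plus strand) for *Hmgcs1* and at chr15:82147062-82147159 (plus strand) for *Srebf2*. A match is a run of letters and not a tested site.
Msmo1: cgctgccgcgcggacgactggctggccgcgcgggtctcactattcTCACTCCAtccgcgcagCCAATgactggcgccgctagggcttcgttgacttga
Hmgcs1: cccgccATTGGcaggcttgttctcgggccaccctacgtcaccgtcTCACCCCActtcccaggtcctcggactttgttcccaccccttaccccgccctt
Srebf2: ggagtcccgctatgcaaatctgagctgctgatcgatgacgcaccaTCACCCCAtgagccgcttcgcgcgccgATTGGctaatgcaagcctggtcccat

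Transcripts from a few steps of the pathway stood well apart from control IgG, while most of the enzymes had modest ratios. The highest signal-to-negative ratios, that is, mean CUGBP1 IP over mean control IgG, were those of the methylsterol monooxygenase transcript *Msmo1* (8.18), the desaturase and elongase transcripts *Fads2* and *Elovl5* (7.85 each), the mevalonate pathway transcript *Hmgcs1* (7.43) and the sterol sensor transcript *Insig2* (5.90). The lowest was that of *Acaca* (1.16), which encodes an acetyl-CoA carboxylase. In all, 10 of the 32 genes (31.2%) were in the top 5% of ratios, the share that the study took as associated with CUGBP1, and 4.97% of all genes were. The threshold of the top 5% here, taken over the 21044 probe sets that named a single gene, was a ratio of 2.57. The member just inside it was *Scd2* (2.82) and the one just outside was *Insig1* (2.53). The study ranked its own set of transcripts and reports a higher lower bound of enrichment. That bound is given as a whole number. *Scd2* (2.82), *Acly* (2.83) and *Fads1* (2.96) lay below it as printed, so these genes need not be on the study's list. The other members in the top 5% lay above it.

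Each intensity is given as a multiple of its array's own 5th percentile, so that a probe set without transcript reads about 1 and a dim probe set has its ratio drawn towards 1. The 95th percentile of olfactory and vomeronasal receptor probe sets was taken as the upper end of background, and lay at 1.23 and 1.29 in the CUGBP1 IP, compared with 1.09 and 1.16 in control IgG. On all 4 arrays 28 of the 32 genes were above it. Among the genes of the whole table that were above background on all 4 arrays 12.6% were in the top 5%, so bright transcripts were there more often than others, and 10 of those 28 (35.7%) were. The arrays of a group also differed. Control IgG replicate 2 was brighter than replicate 1 for 31 of the 32 genes, with a median of 1.41 times, against 1.13 times over all genes and 1.46 times over the genes above background on all 4 arrays. CUGBP1 IP replicate 2 was brighter than replicate 1 for 28 genes, with a median of 1.14 times. That median was 1.11 times over all genes and 1.25 times over the genes above background on all 4 arrays. Of 5 myoblast markers 4 were above background on all 4 arrays, and *Cdh15* was above it on 3. *Myod1*, the myoblast marker with the highest ratio (8.29), averaged 21.0 with the CUGBP1 antibody and 2.54 with control IgG. By contrast, 0 of the 5 adipocyte, 0 of the 4 hepatocyte and 0 of the 3 leukocyte markers were above background on all 4 arrays. Of 3 epithelial markers 1 was, *Krt14*, at 1.57 and 2.21 in the CUGBP1 IP, set against 1.25 and 1.88 in control IgG.

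limma called 1 of the 32 genes higher in the CUGBP1 IP, *Hmgcs1*, and 0 lower, at an adjusted p under 0.05 over all tested probe sets. Over all genes 1.94% were called higher and 0.134% lower, so 1 call of 32 is close to the share in the whole table. That call was lost when any 1 of the 4 arrays was left out, with a limma adjusted p between 0.172 (without control IgG replicate 2) and 0.663 (without CUGBP1 IP replicate 2) for *Hmgcs1* and 0 calls over all probe sets. At an unadjusted p under 0.05, 13 of the 32 genes were higher and 28.9% of all genes were. For 30 genes (93.8%) the groups did not overlap, with the CUGBP1 IP on top, and the same held for 67.1% of all genes. The exceptions were *Fasn* and *Acaca*, whose groups overlapped. The median log2 difference was 0.89 over the 32 genes and 0.29 over all genes. Among genes above background on all 4 arrays the gap was smaller, with a median of 1.01 for the 28 members and 0.72 for all such genes, and with non-overlapping groups for 96.4% of those members and 79.7% of all such genes. The direction of these differences depends on the scaling, since with quantile normalization 15 of the 32 genes had a log2 difference below 0, their median was 0.02 and the CUGBP1 IP lay clear above control IgG for 10 (19.4% of all genes). With arrays scaled to their medians, which sets the median of all genes to 0, that of the 32 genes was 0.60. The ranking depended on it less, and with quantile normalization 8 of the 10 genes remained in the top 5%.

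**Figure D1:**
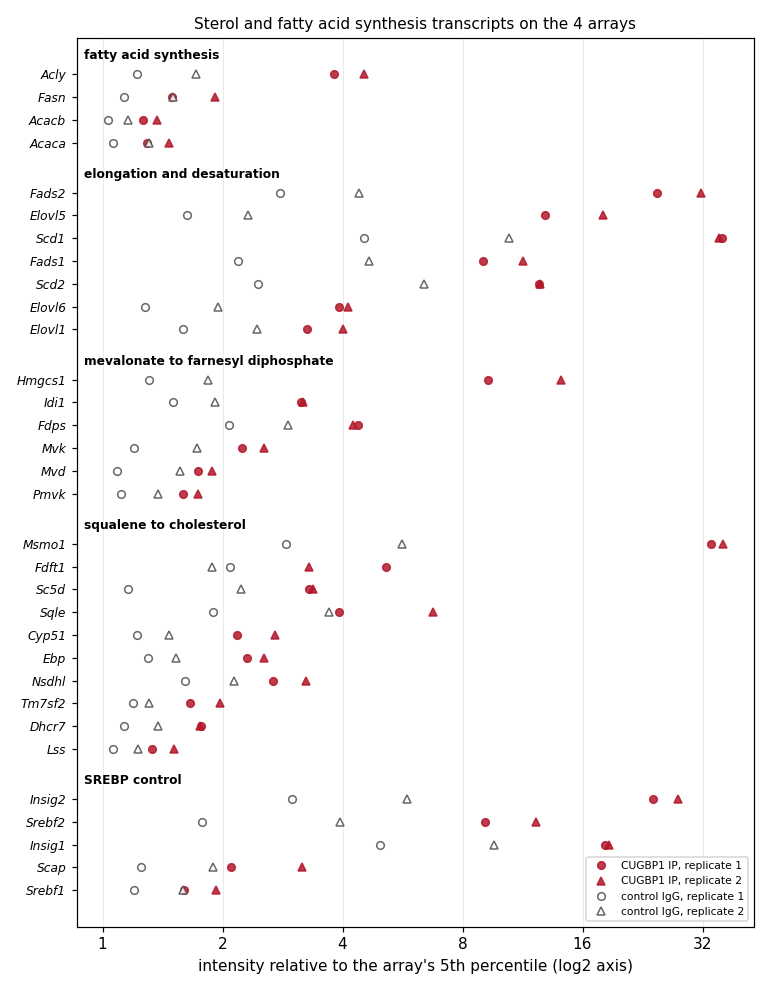
Intensity of each transcript relative to the 5th percentile of its array (log2 axis), 1 row per gene by step of the pathway and 1 point per array, filled for the CUGBP1 IP and open for control IgG. *Msmo1*, *Fads2*, *Scd1* and *Insig2* reach over 24 in the CUGBP1 IP, and the points of *Fasn* and *Acaca* interleave.

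The opening steps of fatty acid synthesis had the lowest median ratio (1.25), with *Acly* standing apart from the rest. ATP citrate lyase, encoded by *Acly*, makes cytosolic acetyl-CoA from citrate for both pathways. Its transcript read 3.80 and 4.53 with the CUGBP1 antibody, against 1.22 and 1.72 with control IgG. The groups lay apart, with a ratio of 2.83 that was in the top 5%, and it differed by 1.52 on the log2 scale (SE 0.50, limma adjusted p = 0.0695). *Fasn*, the fatty acid synthase, read 1.49 and 1.91 in the CUGBP1 IP, set against 1.13 and 1.5 in control IgG, a ratio of 1.29. The lower CUGBP1 IP array of *Fasn* was thus below the higher control IgG array. The acetyl-CoA carboxylase transcripts were near background. *Acacb*, the mitochondrial-surface form, read 1.26 and 1.37 on the CUGBP1 IP arrays, against 1.03 and 1.16 on those of control IgG, where neither array was above background. *Acaca*, the cytosolic form, read 1.29 and 1.47 in the CUGBP1 IP, compared with 1.06 and 1.31 in control IgG, and its dimmer probe set had a ratio of 1.14. These low readings limit what the ratios of the carboxylases can show.

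Among the members, transcripts for fatty acid desaturation and elongation had the highest ratios as a step, with 5 of 7 genes in the top 5% and a median ratio of 2.96. Their median control IgG level, 3.43, was also the highest of the steps. This did not extend to related genes outside the set. Of the fatty acid supply and chain partners described below, only *Slc25a1* and *Me1* were in the top 5%. *Hsd17b12* (2.44), *Tecr* (1.90) and *Fads3* (1.87) were outside it. *Fads2* encodes the desaturase that opens the conversion of essential fatty acids to long polyunsaturated ones. It read 24.57 and 31.72 with the CUGBP1 antibody, against 2.78 and 4.39 with control IgG. Both CUGBP1 IP arrays were far above control IgG, by 3.00 on the log2 scale (SE 1.29, limma adjusted p = 0.134). *Elovl5*, an elongase of polyunsaturated chains that works on the products of *Fads2*, read 12.91 and 18.00 in the CUGBP1 IP, set against 1.63 and 2.31 in control IgG (log2 2.97, SE 1.01, limma adjusted p = 0.0749). *Fads1*, the desaturase that acts after that elongation, read 9.0 and 11.32 on the CUGBP1 IP arrays, against 2.19 and 4.67 on those of control IgG. Its ratio was 2.96, and over control IgG replicate 2 alone it was 2.18. The transcripts of these 3 enzymes, which act in turn, were all in the top 5%, but none was called, *Fads1* having the highest limma adjusted p of them (0.226). *Fads1* also left the top 5% with quantile normalization and with the filter on background.

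*Scd1* and *Scd2* encode stearoyl-CoA desaturases, which make monounsaturated fatty acids. *Scd1* had the highest mean of the set in both groups, with 35.80 and 35.24 in the CUGBP1 IP, compared with 4.53 and 10.47 in control IgG. Its CUGBP1 IP arrays nearly coincided while the control IgG arrays lay far from each other, and the ratio was 4.74 (log2 2.37, SE 1.36, limma adjusted p = 0.199). Over control IgG replicate 1 alone the ratio was 7.84 and over replicate 2 alone 3.39. *Scd2* read 12.44 and 12.53 with the CUGBP1 antibody, against 2.45 and 6.41 with control IgG, a ratio of 2.82, or 1.95 over replicate 2 alone. The elongase transcripts *Elovl6*, for saturated chains, and *Elovl1*, for very long chains, had ratios of 2.49 and 1.80. *Elovl6* read 3.91 and 4.12 in the CUGBP1 IP, set against 1.28 and 1.95 in control IgG, lay just below the top 5%, and had a limma adjusted p of 0.107.

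In the mevalonate branch, *Hmgcs1* stood alone. It encodes the cytosolic HMG-CoA synthase, which joins acetoacetyl-CoA and acetyl-CoA. It read 9.26 and 14.13 on the CUGBP1 IP arrays, against 1.31 and 1.84 on those of control IgG. Every CUGBP1 IP value was thus several times every control IgG value, and the transcript was called higher (log2 2.88, SE 0.85, limma adjusted p = 0.0418). Its ratio was 8.93 over control IgG replicate 1 alone and 6.36 over replicate 2 alone. The remaining 5 measured genes of this branch had ratios between 1.34 and 1.85. *Idi1*, the isopentenyl diphosphate isomerase, had ratios of 1.85 and 2.00 at its probe sets. *Fdps*, which makes farnesyl diphosphate, read 4.37 and 4.26 in the CUGBP1 IP, compared with 2.08 and 2.92 in control IgG, a ratio of 1.73. The mevalonate kinase transcript *Mvk* (1.63), the mevalonate diphosphate decarboxylase transcript *Mvd* (1.37) and the phosphomevalonate kinase transcript *Pmvk* (1.34) were all below 3 on every array. *Pmvk* read 1.59 and 1.74 with the CUGBP1 antibody, against 1.11 and 1.38 with control IgG.

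The sterol branch had the same shape, with 1 transcript in the top 5% and 9 between 1.24 and 2.12. *Msmo1* encodes the methylsterol monooxygenase, which oxidises methyl groups of the sterol ring. It read 33.66 and 35.97 in the CUGBP1 IP, set against 2.88 and 5.63 in control IgG. Its log2 difference of 3.11 was the largest of the set (SE 1.33, limma adjusted p = 0.132), and the ratio was 12.1 over control IgG replicate 1 alone and 6.18 over replicate 2 alone. *Nsdhl*, which encodes the dehydrogenase that acts with that monooxygenase, had a ratio of 1.58, with 2.67 and 3.24 on the CUGBP1 IP arrays, against 1.61 and 2.14 on those of control IgG. *Cyp51*, the lanosterol demethylase acting earlier in the branch, reached 1.81 (log2 0.86, SE 0.34, limma adjusted p = 0.114).

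Upstream of lanosterol, the squalene synthase transcript *Fdft1* read 5.14 and 3.29 in the CUGBP1 IP, compared with 2.09 and 1.88 in control IgG. It was the only gene of the set with a lower value on control IgG replicate 2 than on replicate 1, and its ratios were 2.12 and 1.48 at its probe sets. *Sqle*, the squalene epoxidase, read 3.91 and 6.76 with the CUGBP1 antibody, against 1.89 and 3.69 with control IgG, so that the nearest values of the groups almost touched (ratio 1.91). *Lss*, which closes squalene epoxide to lanosterol, had the lowest ratio of the branch, with 1.33 and 1.51 in the CUGBP1 IP, set against 1.06 and 1.23 in control IgG. Among the late enzymes the sterol desaturase transcript *Sc5d* had a ratio of 1.97, the sterol isomerase transcript *Ebp* 1.71, and the reductase transcripts *Tm7sf2* and *Dhcr7* 1.45 and 1.41. None of these late enzymes passed the test, with limma adjusted p-values from 0.141 for *Sc5d* to 0.173 for *Dhcr7*.

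**Figure D2:**
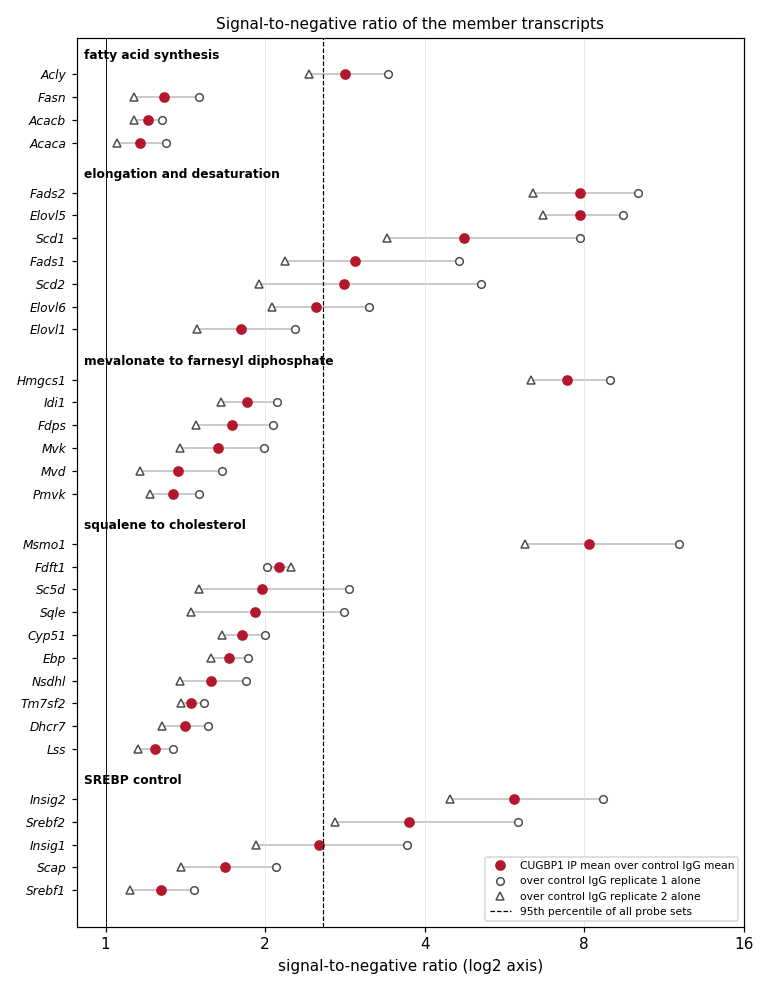
Signal-to-negative ratio (log2 axis) of each gene, with filled points for the ratio over the mean of both control IgG arrays, open circles over replicate 1 alone and open triangles over replicate 2 alone. The dashed line marks the 95th percentile of all tested probe sets, 2.57, and *Msmo1*, *Fads2*, *Elovl5*, *Hmgcs1*, *Insig2*, *Scd1* and *Srebf2* lie right of it over either control IgG array.

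Of the SREBP control genes, *Insig2* and *Srebf2* were in the top 5% and the rest were not. *Insig2* encodes an endoplasmic reticulum protein that retains SCAP when sterols are bound. It read 24.07 and 27.71 on the CUGBP1 IP arrays, against 2.98 and 5.80 on those of control IgG, with a wide gap between groups (log2 2.64, SE 1.30, limma adjusted p = 0.165). *Insig1*, its paralog, which is itself induced by SREBP, read 18.20 and 18.62 in the CUGBP1 IP, compared with 4.97 and 9.59 in control IgG. Its control IgG values were among the brightest of the set, and its ratio was 2.53 (limma adjusted p = 0.378). *Srebf2*, the SREBP that mainly drives cholesterol genes, read 9.09 and 12.24 with the CUGBP1 antibody, against 1.78 and 3.94 with control IgG, a ratio of 3.73 (limma adjusted p = 0.166). That ratio was 5.99 over control IgG replicate 1 alone and 2.71 over replicate 2 alone, and for *Insig2* these values were 8.69 and 4.46. *Srebf1*, which mainly drives fatty acid genes, read 1.60 and 1.93 in the CUGBP1 IP, set against 1.2 and 1.59 in control IgG, so that the groups were separated by 0.01 only. *Scap*, the escort protein of SREBP, read 2.10 and 3.16 on the CUGBP1 IP arrays, against 1.25 and 1.89 on those of control IgG, a ratio of 1.68.

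Related members could be compared within each array, which cancels a single scale factor per array, though not quantile normalization. The log2 of *Insig2* over *Insig1* was 0.40 and 0.57 in the CUGBP1 IP, compared with -0.74 and -0.73 in control IgG, a difference of 1.22. The pair thus shifted towards *Insig2* in the immunoprecipitate on both arrays. For *Srebf2* over *Srebf1* the values were 2.51 and 2.66 with the CUGBP1 antibody, against 0.57 and 1.31 with control IgG (difference 1.65). For *Fads2* over *Fads1* they were 1.45 and 1.49 in the CUGBP1 IP, set against 0.34 and -0.09 in control IgG (difference 1.34), and for *Scd1* over *Scd2* 1.52 and 1.49 on the CUGBP1 IP arrays, against 0.89 and 0.71 on those of control IgG (difference 0.71). *Elovl5* shifted by 2.10 relative to *Elovl1* and by 1.63 relative to *Elovl6*. With quantile normalization the difference was 0.85 for *Srebf2* over *Srebf1*, 1.32 for *Insig2* over *Insig1* and between 0.71 and 1.95 for the other pairs. The groups did not overlap for any of these 6 pairs. The pairs were chosen with earlier results of these data known, and with 2 arrays per group the exact two-sided permutation test over the 6 splits cannot give a p below 0.333, which each pair reached. Genes that sit near background, such as *Srebf1*, have compressed values in both groups.

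**Figure D3:**
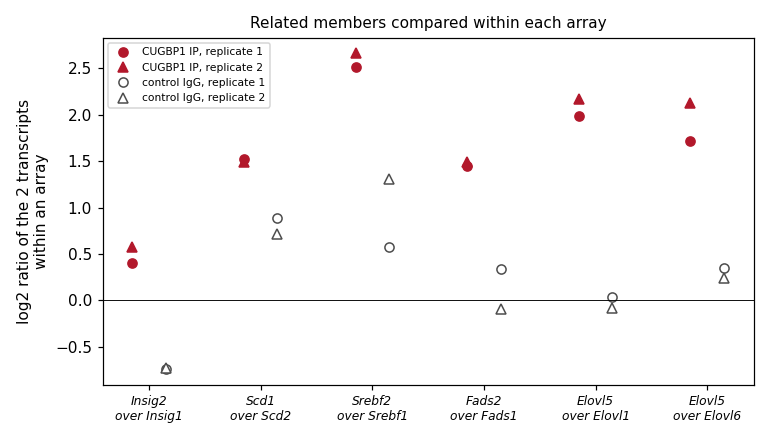
Log2 ratio of related transcripts within each array, with the CUGBP1 IP arrays (filled) left of the control IgG arrays (open) for each pair. *Insig2* over *Insig1* lies at 0.40 and 0.57 in the CUGBP1 IP and at -0.74 and -0.73 in control IgG, and the groups do not overlap for any of the 6 pairs.

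The ratio varied with the level in control IgG across the whole table, as brighter transcripts had higher ratios up to a point. The median ratio of all genes was 1.22 where control IgG averaged between 1.1 and 1.25, and 2.07 where it averaged between 3 and 5. Set against genes in the same interval of control IgG level, 22 of the 32 genes were above the median ratio and 5 were above the 95th percentile. Those 5 were *Acly*, *Hmgcs1*, *Elovl5*, *Fads2* and *Msmo1*. *Hmgcs1* and *Elovl5* averaged only 1.58 and 1.97 in control IgG, an interval in which the 95th percentile of the ratio was 4.29. In the interval from 1.25 to 1.5, which held 9 of the genes, 4 were above the median of 1.47. The control IgG level is also the denominator of the ratio, so the axes of this comparison are not independent.

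**Figure D4:**
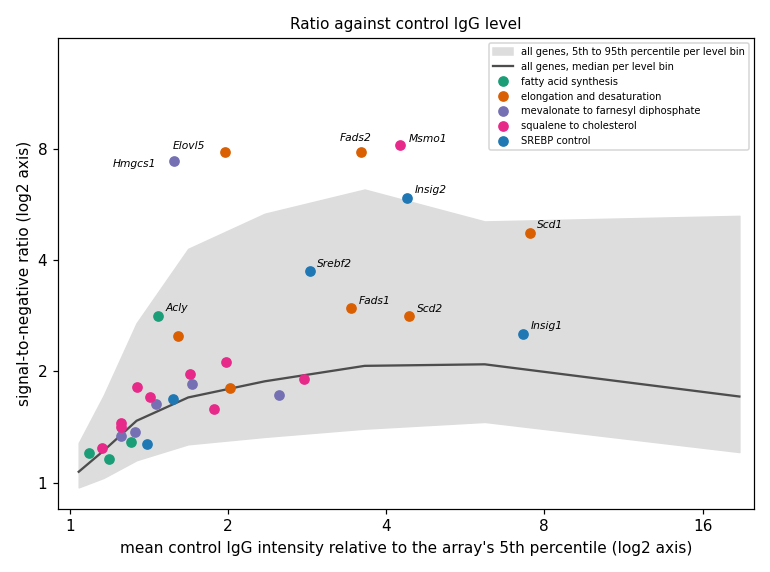
Signal-to-negative ratio against the mean control IgG intensity (both on log2 axes), with 1 point per measured gene coloured by step, the line at the median of all genes in intervals of control IgG level and the band from their 5th to their 95th percentile, both joined between the centres of the intervals. *Msmo1*, *Fads2*, *Elovl5* and *Hmgcs1* lie above the band, between 7.43 and 8.18, *Acly* lies inside the joined band though above the 95th percentile of its own interval, and most sterol enzymes lie near the line.

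Lists of neighbouring genes of lipid metabolism, written with earlier results of these data known, held 65 genes, of which 56 were measured. Of these 3 were called higher and 0 lower, where 1.94% and 0.134% of all genes were. In the top 5% were 7 (12.5%, against 4.97% of all genes), or 22.6% of the 31 above background on all 4 arrays, against 12.6% of all such genes. Their median log2 difference was 0.57, against 0.29 over all genes. In the list of fatty acid supply and chain partners, 2 of 21 measured genes (9.52%) were in the top 5%. *Slc25a1*, the mitochondrial carrier that exports the citrate used by *Acly*, read 25.03 and 38.26 in the CUGBP1 IP, compared with 1.5 and 2.44 in control IgG. It rose by 4.02 on the log2 scale (SE 1.19, limma adjusted p = 0.0437). *Me1*, the malic enzyme that yields NADPH for synthesis, had ratios of 2.72 and 2.36 at its probe sets. The carrier and *Acly*, which act one after the other to bring acetyl-CoA to the cytosol, were thus both in the top 5%. *Acaca* and *Fasn*, the enzymes that follow, were not. Those transcripts averaged only 1.19 and 1.31 in control IgG, and dim probe sets have ratios drawn towards 1. *Acly* itself was not called, and the contrast was not tested.

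Among the sterol and SREBP processing partners 3 of 18 measured genes (16.7%) were in the top 5%, against the same 4.97% of all genes. *Ggps1*, which makes geranylgeranyl diphosphate from farnesyl diphosphate, read 3.77 and 4.29 with the CUGBP1 antibody, against 1.22 and 1.44 with control IgG. It rose by 1.60 on the log2 scale (SE 0.47, limma adjusted p = 0.0416). *Rnf139*, an endoplasmic reticulum ubiquitin ligase, reached a ratio of 4.02 (limma adjusted p = 0.0979), and *Mylip*, the ubiquitin ligase of lipoprotein receptors, one of 3.43 (limma adjusted p = 0.0533). Of 17 measured genes of glycerolipid synthesis 2 (11.8%) were in the top 5%. *Cds2*, a CDP-diacylglycerol synthase, read 4.67 and 5.04 in the CUGBP1 IP, set against 1.11 and 1.44 in control IgG. It rose by 1.94 on the log2 scale (SE 0.51, limma adjusted p = 0.0237). *Ptdss1*, a phosphatidylserine synthase, reached 2.88 (limma adjusted p = 0.106). These 3 calls were lost when an array was left out, as were all calls in the whole table, so the loss was not particular to these neighbours. The share of neighbours in the top 5% was not compared with that of the synthesis set by a test.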

How the data were processed

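Affymetrix Mouse Gene ST arrays were used, and the authors deposited linear intensities after dividing those of each array by its 5th percentile. The program that summarised probe sets is not given in the sources used here. Of 25175 probe sets, 21044 named a single gene in a platform annotation, 1492 several and 2639 none. Symbols of 20959 were updated through RefSeq (GRCm38.p6, names only). Group differences in log2 intensity were fitted for all 21044 with lmFit and eBayes of limma 3.58.1 under R 4.3.3, allowing a trend of the variance with intensity. The two-sided p-values were adjusted over them all by the method of Benjamini and Hochberg, and the procedure was tested on simulated data. Differences are CUGBP1 IP minus control IgG, with moderated standard errors (SE). "Rose" and "called" refer to an adjusted p under 0.05. With 2 arrays per group, their number limits the precision. For genes with several probe sets, the highest mean over the 4 arrays was used. Background was set from 1203 receptor probe sets. Every member gene is named, with all 4 values for those called, in the top 5%, highest, lowest or brightest, and for SREBP control. Genes, lists and pairs were chosen with earlier results of these data known. Alternatives were other scalings, an offset, a background filter, no trend, other probe sets, left-out arrays and a replicate block. A search of 3′ ends for GU-rich letters was not run, since no genome was used here.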

Additional observations from a re-analysis of the deposited data

How the results depend on the processing

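Of the 10 genes in the top 5%, 6 (*Elovl5*, *Fads2*, *Hmgcs1*, *Insig2*, *Msmo1* and *Scd1*) were there under all 9 alternatives that change the ratio, *Srebf2* under 8, *Acly* and *Fads1* under 7 and *Scd2* under 5. limma called 2 genes higher with arrays scaled to their medians and with an offset of 1 (*Acly* and *Hmgcs1* in both). It called 3 with quantile normalization (*Elovl5*, *Hmgcs1* and *Msmo1*), and 2 among probe sets above background on all arrays (*Elovl5* and *Hmgcs1*). Of all 21044 probe sets the main fit called 411 higher. Median scaling gave 1362 such calls, the offset 763 and quantile normalization 426. The filter on background gave 270 of 7727. That filter left 6 genes in the top 5% of fewer probe sets, and a member median 0.29 above that of all genes, against 0.60 with all probe sets. Without the intensity trend limma called 0 of the 32 genes and 0 of all 21044 probe sets, so this loss was not particular to the set. With an array left out, 1 residual degree of freedom remains. The array left alone in its group is then assumed to vary like the other group. In those fits the member median lay between 0.45 (without control IgG replicate 1) and 0.68 (without its replicate 2) above that of all genes. With the replicate number as a block 28 of 32 genes were called, and 11809 of all probe sets. Deviations of same-numbered arrays correlated at 0.639, but no source says that a number marks a shared lysate, and with 2 pairs this pairing cannot be checked further. With quantile normalization the median of the 32 genes exceeded the overall median by 0.04 and the groups did not overlap for 10 genes. Log2 differences then turned to -0.05 for *Acaca*, -0.06 for *Ebp*, -0.32 for *Elovl1*, -0.12 for *Fasn*, -0.24 for *Fdft1*, -0.57 for *Fdps*, -0.16 for *Idi1*, -0.31 for *Insig1*, -0.02 for *Mvk*, -0.47 for *Nsdhl*, -0.01 for *Pmvk*, -0.09 for *Scap*, -0.44 for *Sqle*, -0.31 for *Srebf1* and -0.06 for *Tm7sf2*. With arrays scaled to their medians they were -0.06 for *Acaca* and -0.02 for *Acacb*. The cause was not tested. Scaling to receptor probe sets and the dimmer probe set of a gene changed no call of the 32. Signal over background limits the dim enzymes most, since 4 of the 32 genes were not above background on every array.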
